A study of Homo sapiens with 6 samples.

Results

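Imprinted genes were examined in the established human cell line HCT116, which derives from a colorectal carcinoma, on 3 arrays of the parental line and 3 arrays of a derived line labelled as a mutant with altered DNA methylation. The 42 genes were taken from a list of imprinted genes and grouped here into 15 domains, a domain being a set of neighbouring genes under shared imprint control or a single gene lying apart. A gene was measured where a probe set of the Affymetrix whole-transcript array carried its symbol and no other, which left 33 of the 42, each with 1 probe set, among 18417 genes measured in this way. Probe sets that also carry another symbol held COPG2, IGF2, H19, SNRPN, ZIM2 and PEG3, and KCNQ1OT1, HYMAI and SLC22A3 had no named probe set, so these 9 genes have no value here. Both groups were grown in the same medium with serum and antibiotics, the mutated gene is not named in the labels, and nothing says whether the mutant arrays come from more than a single derived clone. Effects of the mutation and other differences between the lines therefore cannot be told apart.

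An imprinted gene is expressed mainly from the chromosome inherited from a given parent. The choice is kept in somatic cells by DNA methylation laid down in the germ line at imprinting control regions, each of which can govern several genes in its neighbourhood, and loss of imprinting is a known event in colorectal tumours. The arrays measure the RNA of both alleles together, so a level does not show which allele is used, and the label "imprinted" could not be checked in these data. DNA methylation itself was not analysed here.

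Of the 33 measured genes, 4 were called higher and 3 lower in the mutant line at a Benjamini-Hochberg adjusted p under 0.05 in limma. PEG10, a retrotransposon-derived gene expressed from the paternal allele, fell 4.16-fold. PHLDA2, which restrains placental growth, fell 1.56-fold, and the tumour suppressor gene RB1 fell 1.26-fold. GRB10, an adaptor that dampens insulin and IGF signalling, rose 1.57-fold, and SGCE, PON2 and UBE3A rose by 1.22-fold, 1.21-fold and 1.2-fold. Over all genes measured 25.9% were called, 14.6% higher and 11.3% lower, so the 7 of 33 imprinted genes (21.2%) lie near the background share. Their median log2 difference was -0.02, against 0.0034 over all genes. With at least a 1.5-fold change, 1 imprinted gene was higher and 2 were lower, where 7.22% of all genes passed. The 3 arrays of a group did not overlap with those of the other group in 16 of the 33 genes, against 45.8% of all genes.

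**Figure D1:**
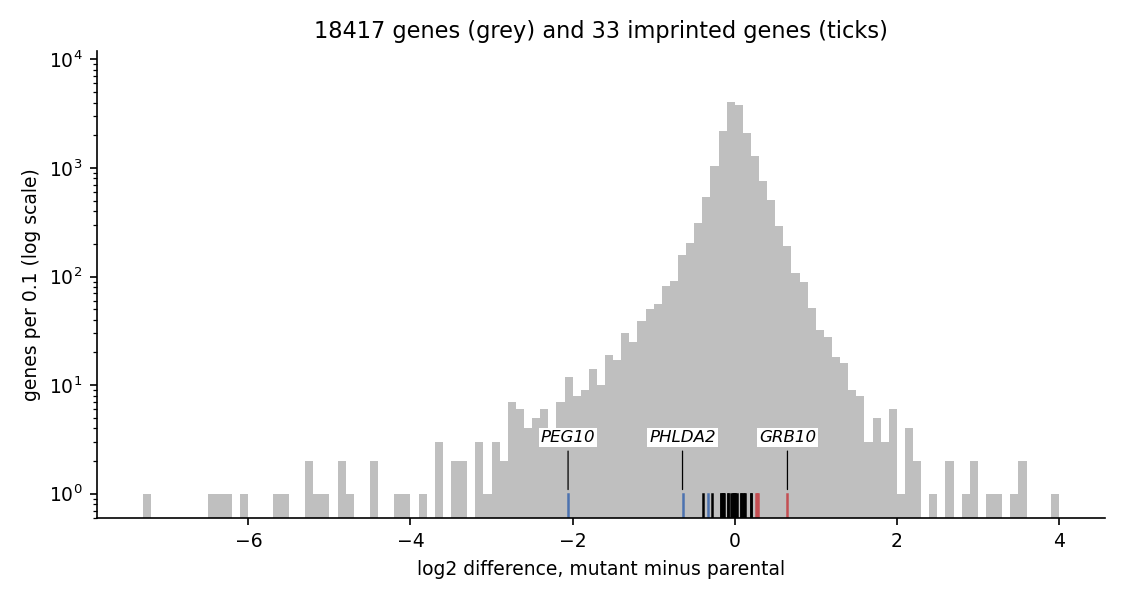
Grey bars count the 18417 genes in steps of 0.1 of the log2 difference, mutant minus parental, on a log scale, and ticks at the base mark the 33 imprinted genes (red called higher, blue called lower, black not called). PEG10, at -2.06, lies in the lower tail, and PHLDA2 (-0.64) and GRB10 (0.65) stand outside the cluster of the other members around 0.

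Array medians lay between 6.88 and 6.93 on the log2 scale, and arrays of the same group correlated at 0.995 to 0.996 across probe sets, against 0.988 to 0.989 between groups; probe sets are not independent replicates. Separate cultures are not stated for the arrays, so the p-values rest on a spread between samples that may be technical only. Of 8 markers of colorectal epithelium, EPCAM, KRT8, KRT18, KRT19 and CDX2 were bright, and KRT20, CDH17 and CEACAM5 lay below 6.91, the median of all values. The keratin genes KRT18, KRT8 and KRT19 were called lower in the mutant (-0.88, -0.53 and -0.47), and their part in the results below was not tested. Among markers of other cell types, 7 of 8 fibroblast, 4 of 5 leukocyte and 4 of 5 neural genes lay below that median in both groups, and of these lists 1 gene, PDGFRB, was called (0.27 higher).

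Upstream sequence is shown for GRB10, PON2 and UBE3A, which were called higher, and for DDC, the imprinted neighbour of GRB10 that was not called. The aim was to set the density of CpG, the dinucleotide that carries DNA methylation, beside the expression values. No promoter was listed for the called genes PEG10, SGCE and PHLDA2. DDC is not typical of the uncalled genes, since all others with a listed promoter had a window richer in CpG. Each line holds the 250 bases before the outermost start that RefSeq lists for the gene (GRCh38.p14, minus strand, written 5′ to 3′), with every CG in capitals. The stretches lie at chr7:50793454-50793703 for GRB10, chr7:50565406-50565655 for DDC, chr7:95435029-95435278 for PON2 and chr15:25439057-25439306 for UBE3A, and no gene of the RefSeq table overlaps them.
GRB10: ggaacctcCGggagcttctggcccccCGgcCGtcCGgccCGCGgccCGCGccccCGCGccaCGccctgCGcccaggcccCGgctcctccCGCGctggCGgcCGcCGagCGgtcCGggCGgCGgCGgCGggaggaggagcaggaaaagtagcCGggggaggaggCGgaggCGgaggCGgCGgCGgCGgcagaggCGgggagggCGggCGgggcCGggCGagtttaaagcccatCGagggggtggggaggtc
DDC: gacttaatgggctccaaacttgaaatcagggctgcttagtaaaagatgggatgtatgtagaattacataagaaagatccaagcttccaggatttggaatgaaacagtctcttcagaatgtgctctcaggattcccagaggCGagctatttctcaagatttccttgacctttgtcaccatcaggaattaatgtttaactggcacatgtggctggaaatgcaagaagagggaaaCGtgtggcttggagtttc
PON2: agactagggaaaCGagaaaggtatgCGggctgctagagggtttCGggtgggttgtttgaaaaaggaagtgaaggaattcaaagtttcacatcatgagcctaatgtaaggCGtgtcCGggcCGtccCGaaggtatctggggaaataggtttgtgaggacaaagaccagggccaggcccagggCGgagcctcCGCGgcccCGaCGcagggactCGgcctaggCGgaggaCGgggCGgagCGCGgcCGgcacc
UBE3A: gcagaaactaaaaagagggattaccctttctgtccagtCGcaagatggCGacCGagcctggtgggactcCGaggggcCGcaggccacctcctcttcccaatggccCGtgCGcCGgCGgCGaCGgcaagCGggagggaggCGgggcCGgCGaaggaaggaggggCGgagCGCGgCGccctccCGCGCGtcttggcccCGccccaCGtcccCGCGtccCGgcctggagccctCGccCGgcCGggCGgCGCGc
The GRB10 stretch holds 37 CG, that of UBE3A 33, that of PON2 19 and that of DDC 2. On windows of 300 bases, which add the first 50 bases after the start, as many CG as at this GRB10 start were found in 4.19% of 35116 RefSeq promoters, as many as at the UBE3A start in 8.71%, as many as at the PON2 start in 33.9%, and as many as at the DDC start in 81.8%. Only 4 of the 7 called genes had a listed promoter, too few to compare CG density between called and uncalled genes. By the richest window of each gene, GRB10 had 49 CG and UBE3A 44, above all 22 uncalled genes with a promoter. The richest of these were GNAS and NAP1L4, with 43 each. PON2 had 24, and 13 of the 22 had more, among them IGF2R with 41 and KLF14 with 39. A gene with more listed starts has more windows to draw the richest from. GRB10 had 5 listed starts and UBE3A 3, against 1 for PON2. A link between CG density and the calls was not tested. The only window listed for RB1, which was called lower, lies at chr13:48476200-48476499 and holds 0. Whether that window covers the main start of RB1 was not checked. Its CG count is therefore not read as that of the RB1 promoter. RefSeq promoters were matched for 30 of the 42 genes, as 61 distinct windows with a median of 21 CG against 14 over all promoters. The hexamer TGCCGC, which the imprint-protecting zinc finger protein ZFP57 binds when its CG is methylated, was searched on both strands. It was present in 24 of the 61 windows (39.3%), against 16.7% of all promoters. Some windows of the same gene overlap, as at MEG3 and MEST, so a site can be counted more than once. The hexamer contains a CG itself, so windows richer in CG can hold it more often, and a match is not a binding site. The ZFP57 gene measured 5.67 in parental and 5.81 in mutant cells on average. Both means lay below the median of all values, and ZFP57 was not called.

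The 7q21 domain held the largest difference among the 33 genes. PEG10 measured 10.54, 10.54 and 10.60 on the 3 parental arrays and 8.43, 8.55 and 8.53 on the 3 mutant arrays, in log2 units. The groups lay far apart, with every mutant array more than a log2 unit below every parental array. The fitted difference was -2.06 (SE 0.05; 95% interval -2.19 to -1.92; limma adjusted p = 1.67e-05), and 0.434% of all genes had a difference as low or lower. SGCE, which encodes epsilon-sarcoglycan and is likewise expressed from the paternal allele, is the adjacent gene and is read from the opposite strand starting next to PEG10. It measured 9.59, 9.67 and 9.51 on the parental arrays and 9.78, 9.87 and 9.98 on the mutant arrays. All mutant arrays of SGCE were thus above all parental arrays, opposite to PEG10. The difference was 0.29 (SE 0.07; limma adjusted p = 0.0407), and this call was lost under 7 of 15 alternatives, including 5 of the 6 fits that left out an array (all but mutant replicate 1). The lost calls in those 5 fits had adjusted p-values of 0.0645 to 0.114, and over all 15 alternatives the range was 0.00958 to 1.

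PON2, an intracellular paraoxonase that limits oxidative damage, lies farther along the domain. It measured 10.02, 9.99 and 10.08 on the parental arrays and 10.30, 10.34 and 10.28 on the mutant arrays. The groups did not overlap, and the difference was 0.27 (SE 0.05; limma adjusted p = 0.0135). The call was lost without parental replicate 2 (adjusted p = 0.0591) and without mutant replicate 2 (0.0582), with a range of 0.00167 to 1 over the 15 alternatives. PPP1R9A, which encodes the actin-binding neurabin, gave -0.13 (95% interval -0.35 to 0.09; adjusted p = 0.437 by limma). CALCR, the calcitonin receptor gene, and TFPI2, a protease inhibitor gene, had means of 4.27 to 4.42 and 4.02 to 4.04 in the groups. Both were dim, which here means that both group means lay below the median of all values, where the array compresses differences.

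The 17 measured genes beside or between the 7q21 members included 3 called higher and 3 called lower, with a median difference of -0.02. The background for this and the later neighbour counts is 14.6% of all genes called higher and 11.3% called lower. On the SGCE side of PEG10 the nearest measured gene, CASD1, a sialic acid acetyltransferase, rose by 0.42 (SE 0.11; limma adjusted p = 0.0387). CDK6, the G1 cyclin-dependent kinase at the edge of the region, fell by 1.2 (SE 0.06; adjusted p = 0.000133), the largest difference among these neighbours and smaller than that of PEG10. PON1 and PON3, paralogs of PON2 in the same stretch, gave 0.0011 and 0.18 and were not called.

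**Figure D2:**
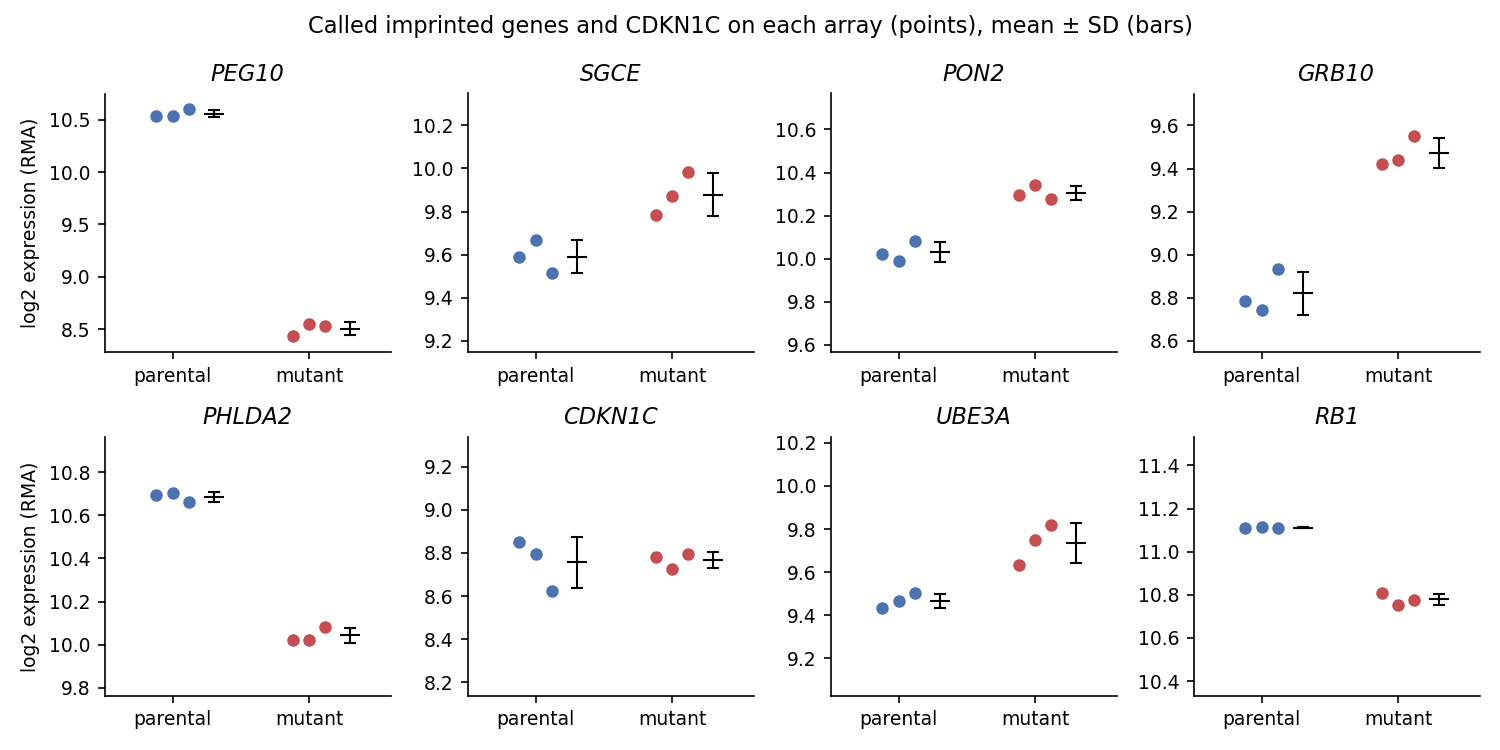
Points give the log2 expression of the 7 called imprinted genes and of CDKN1C on each array (blue parental, red mutant), with the mean and SD of 3 arrays beside them; each panel has its own axis. The groups are separate for every called gene, with a difference of -2.06 for PEG10 and smaller ones for the others, and overlap for CDKN1C.

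The 11p15 domain of CDKN1C showed a decrease in some of its genes. PHLDA2 measured 10.70, 10.71 and 10.66 on the parental arrays and 10.02, 10.02 and 10.08 on the mutant arrays. The groups were separate and tight, and the difference was -0.64 (SE 0.05; 95% interval -0.76 to -0.53; limma adjusted p = 0.000449). CDKN1C, the cyclin-dependent kinase inhibitor p57, is expressed from the maternal allele like PHLDA2. It measured 8.85, 8.79 and 8.63 on the parental arrays and 8.78, 8.73 and 8.79 on the mutant arrays, which overlapped. Its difference was 0.01 (95% interval -0.16 to 0.18; limma adjusted p = 0.953). The difference between these changes was not tested.

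NAP1L4, the nucleosome assembly gene next to PHLDA2, gave 0.11, the potassium channel gene KCNQ1 gave 0.20 and the lipid transfer gene OSBPL5 gave -0.17, with limma adjusted p-values of 0.218, 0.166 and 0.0822. OSBPL5 passed under 4 of the 15 alternatives. Of the 15 measured genes beside or between these members, 2 were called lower and 1 higher. The gene directly before PHLDA2 is SLC67A1, an imprinted transporter gene formerly named SLC22A18. It measured 8.76, 8.71 and 8.75 on the parental arrays and 8.04, 7.99 and 8.08 on the mutant arrays, a difference of -0.70 (SE 0.05; limma adjusted p = 0.000379). Both neighbours thus fell by similar amounts, SLC67A1 by 0.70 and PHLDA2 by 0.64 on the log2 scale. CARS1, a cysteinyl-tRNA synthetase gene of the same stretch, fell by 0.48 (SE 0.05; adjusted p = 0.00136). ZNF195, beyond the domain, was the call in the other direction (0.30). Of the 10 measured genes around H19 and IGF2, 0 were called in limma, their differences ranging from -0.17 to 0.09. Among these genes IGF2-AS, TH, ASCL2 and C11orf21 were dim, and over all genes 25.9% were called. H19 and IGF2 themselves have no value here.

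In the 7p12 domain GRB10 measured 8.79, 8.74 and 8.93 on the parental arrays and 9.42, 9.44 and 9.55 on the mutant arrays. All 3 mutant arrays lay above all parental arrays. The difference was 0.65 (SE 0.07; 95% interval 0.48 to 0.82; limma adjusted p = 0.00192), and 2.66% of all genes rose as much or more. DDC, which encodes the decarboxylase that makes dopamine and serotonin, was dim, with 5.85 ± 0.16 in parental and 5.76 ± 0.13 in mutant cells (log2, SD, n = 3 each). This is the gene whose upstream stretch above is poor in CG. Among 11 neighbours of this pair 0 were called higher and 2 lower. They were EGFR, the EGF receptor gene, at -0.44 (SE 0.05; limma adjusted p = 0.00193), and the actin nucleator gene COBL at -0.26 (SE 0.06; adjusted p = 0.0357).

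In the 15q11 domain of Prader-Willi and Angelman syndromes, UBE3A, a ubiquitin ligase imprinted in neurons, measured 9.44, 9.46 and 9.5 on the parental arrays and 9.63, 9.75 and 9.82 on the mutant arrays. The groups did not overlap, but the mutant arrays were spread wider. The difference was 0.27 (SE 0.06; limma adjusted p = 0.0326), lost under 7 of the 15 alternatives, including 5 of the 6 fits that left out an array (all but mutant replicate 1), with adjusted p-values of 0.0702 to 0.104 in those 5 fits and 0.00694 to 1 over all 15. MKRN3, a ring finger gene linked to puberty timing, gave 0.12 (limma adjusted p = 0.204). MAGEL2, the MAGE family gene NDN and the phospholipid flippase gene ATP10A were dim, at -0.28, -0.02 and -0.16. MAGEL2, a partner of ubiquitin ligases, passed under 1 of its 14 alternatives, without parental replicate 1 (limma adjusted p = 0.0326, against 0.128 with all arrays; 0.0326 to 1 over its alternatives). Of 52 measured neighbours, many of them snoRNA copies within the domain, 1 was called higher (HERC2, 0.25) and 1 lower (SNORD116-11, -0.30, dim, whose near-identical copies can share probes). The snoRNA copies were all dim, and 7.16% of all dim genes were called, against 25.9% of all genes.

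RB1, which holds cells before S phase and has a parental expression bias, was the called gene outside chromosomes 7, 11 and 15. It measured 11.11, 11.11 and 11.11 on the parental arrays and 10.81, 10.75 and 10.78 on the mutant arrays. The parental arrays differed by less than 0.01, and the difference was -0.33 (SE 0.04; 95% interval -0.44 to -0.22; limma adjusted p = 0.00421). Of its 10 measured neighbours on 13q14, 5 were called lower, 1 was called higher and 4 were not called, with a median of -0.22. MED4, a Mediator subunit gene, fell by 1.11, SUCLA2, a subunit of succinyl-CoA ligase, by 0.84, FNDC3A by 0.65 and ITM2B by 0.40, all more than RB1, and RCBTB2 rose by 0.59. On chromosome 13 as a whole 17.7% of 317 genes were called lower, against 11.3% of all genes. The part of this wider shift in the RB1 difference was not tested.

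**Figure D3:**
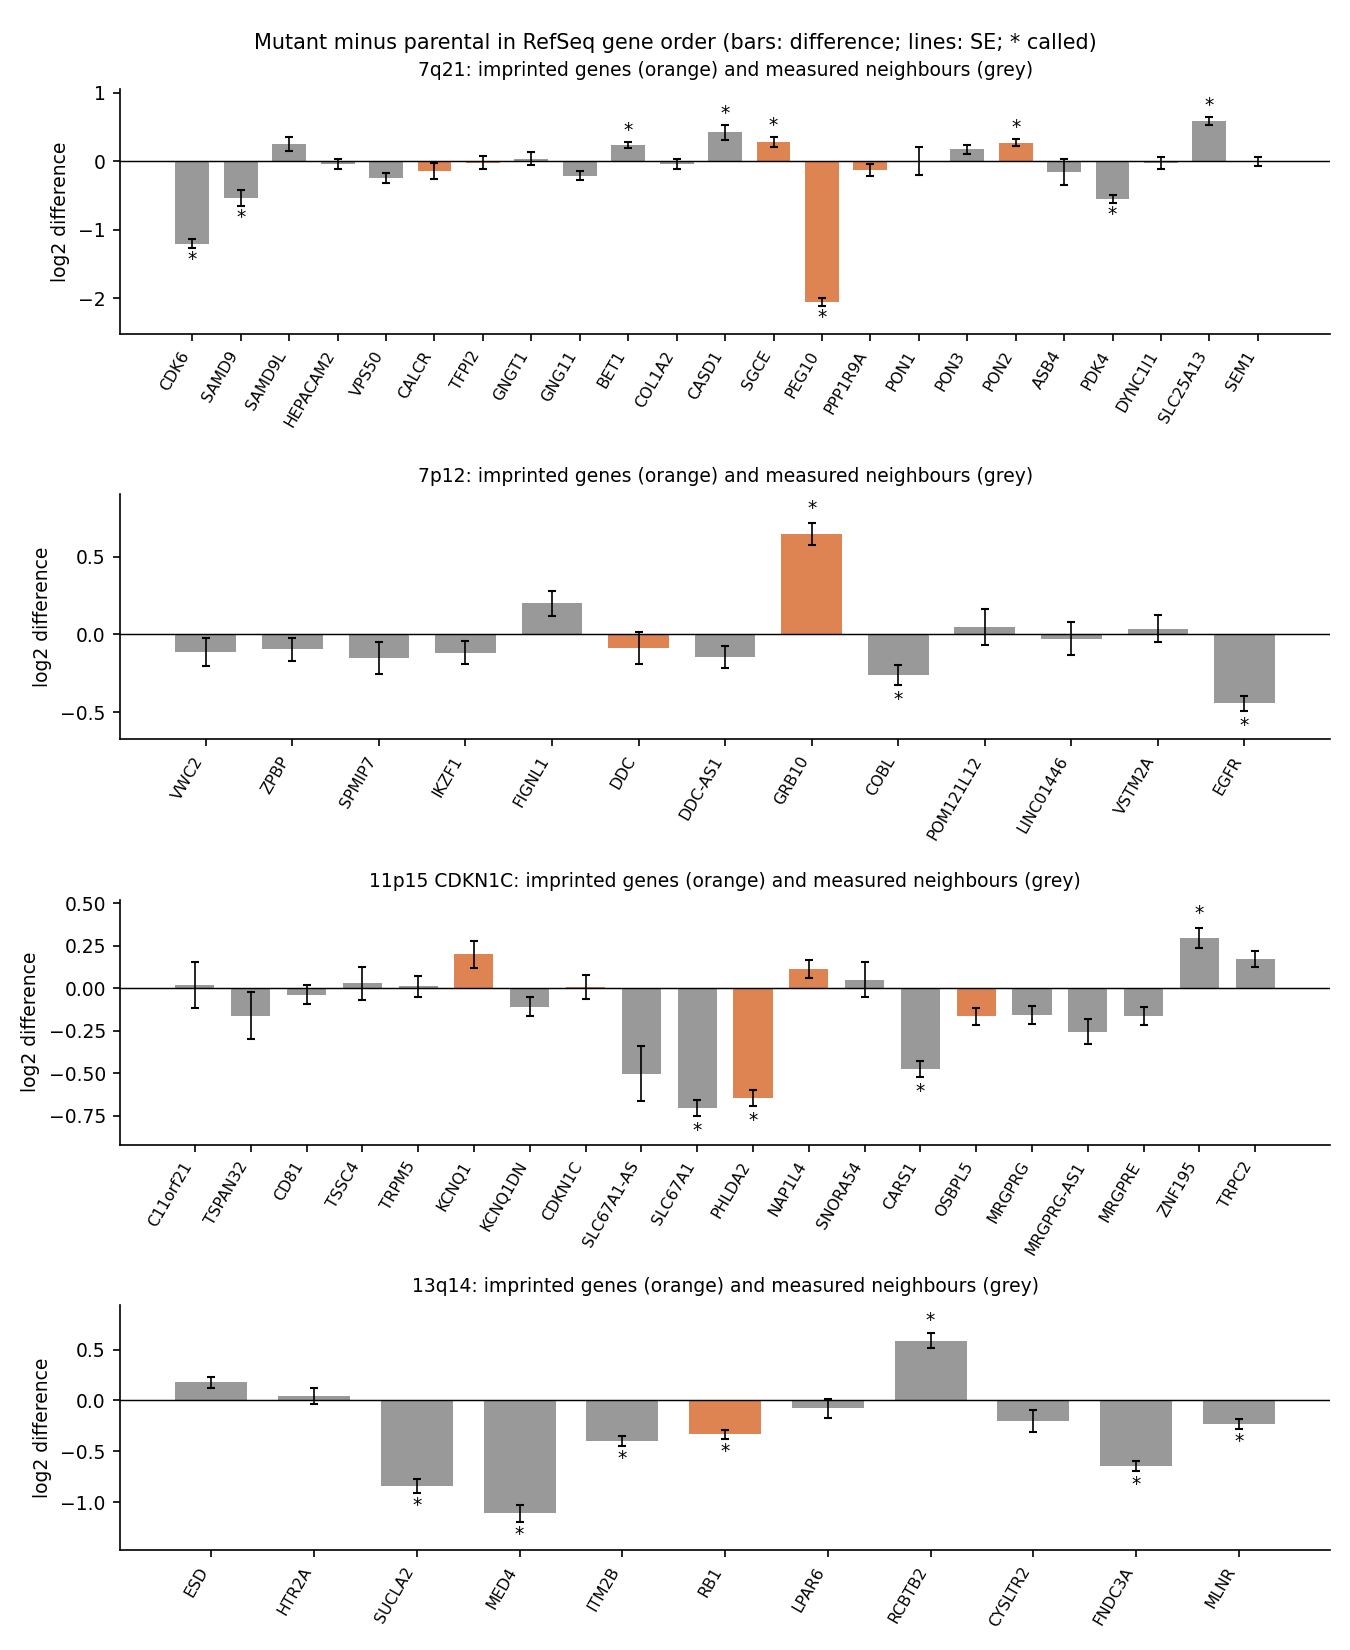
Bars give the log2 difference, mutant minus parental, with its SE, for 4 domains in RefSeq gene order, stars marking called genes. Orange marks the imprinted genes of the list and grey their measured neighbours. Some grey genes, among them SLC67A1 and PON1, are also reported as imprinted. PEG10 (-2.06) stands beside SGCE (0.29) and CASD1 (0.42), PHLDA2 (-0.64) beside SLC67A1 (-0.70), GRB10 (0.65) among lower or uncalled neighbours, and RB1 (-0.33) among several lower ones.

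The other 8 domains with a measured member had no called gene of the list. MEST, a paternally expressed hydrolase gene of 7q32, measured 10.47, 10.48 and 10.43 on the parental arrays and 10.34, 10.24 and 10.38 on the mutant arrays. These did not overlap, yet the difference of -0.14 (95% interval -0.28 to -0.0023) had a limma adjusted p = 0.162. KLF14, a maternally expressed transcription factor gene beside it, gave -0.01. The nearby CPA4, a carboxypeptidase gene also reported as imprinted, fell from 9.87, 9.83 and 10.07 to 7.01, 7.55 and 7.54, a difference of -2.56 (SE 0.16; limma adjusted p = 0.000272), larger than that of PEG10.

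At 14q32 the DLK1 gene of a Notch-related ligand, with means of 6.99 and 7.02, lay just above the median of all values, and the noncoding RNA MEG3, the retrotransposon-like RTL1 and the thyroid hormone deiodinase gene DIO3 were dim. Their differences were 0.03, 0.07, -0.14 and 0.21. PLAGL1, a growth-restraining zinc finger gene of 6q24, gave 0.07, from 9.37 ± 0.08 to 9.45 ± 0.05 (log2, SD, n = 3 each). DIRAS3, a small GTPase gene of 1p31 that acts as a tumour suppressor in other tissues, was dim at 6.12, 5.88 and 6.11 on the parental arrays and 5.54, 5.55 and 5.83 on the mutant arrays. The groups did not overlap, and the difference of -0.39 (SE 0.11) had a limma adjusted p = 0.0536. It passed under 2 of its 14 alternatives, without mutant replicate 3 (adjusted p = 0.0279) and with only single-symbol probe sets tested (0.02), and the range over its alternatives was 0.02 to 1.

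GNAS, which encodes the stimulatory G protein alpha subunit and several overlapping imprinted transcripts, differed by 0.0026 (95% interval -0.11 to 0.11), and its single probe set does not separate those transcripts. On chromosome 20 the bladder cancer-associated BLCAP gave 0.10, the Polycomb-related L3MBTL1 gave -0.04, and the neuronatin gene NNAT, which lies within BLCAP, was dim at 6.38 and 6.37. IGF2R, the receptor that clears IGF2, gave -0.09 (95% interval -0.23 to 0.05), and the organic cation transporter gene SLC22A2 was dim. In all 26 genes were not called, with differences from -0.39 to 0.21. For 25 of these the 95% interval stayed within 1.5-fold in both directions, DIRAS3 being the exception. Of the 26, 12 were dim, and since the array compresses differences there, their intervals do not bound the change in RNA.

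**Figure D4:**
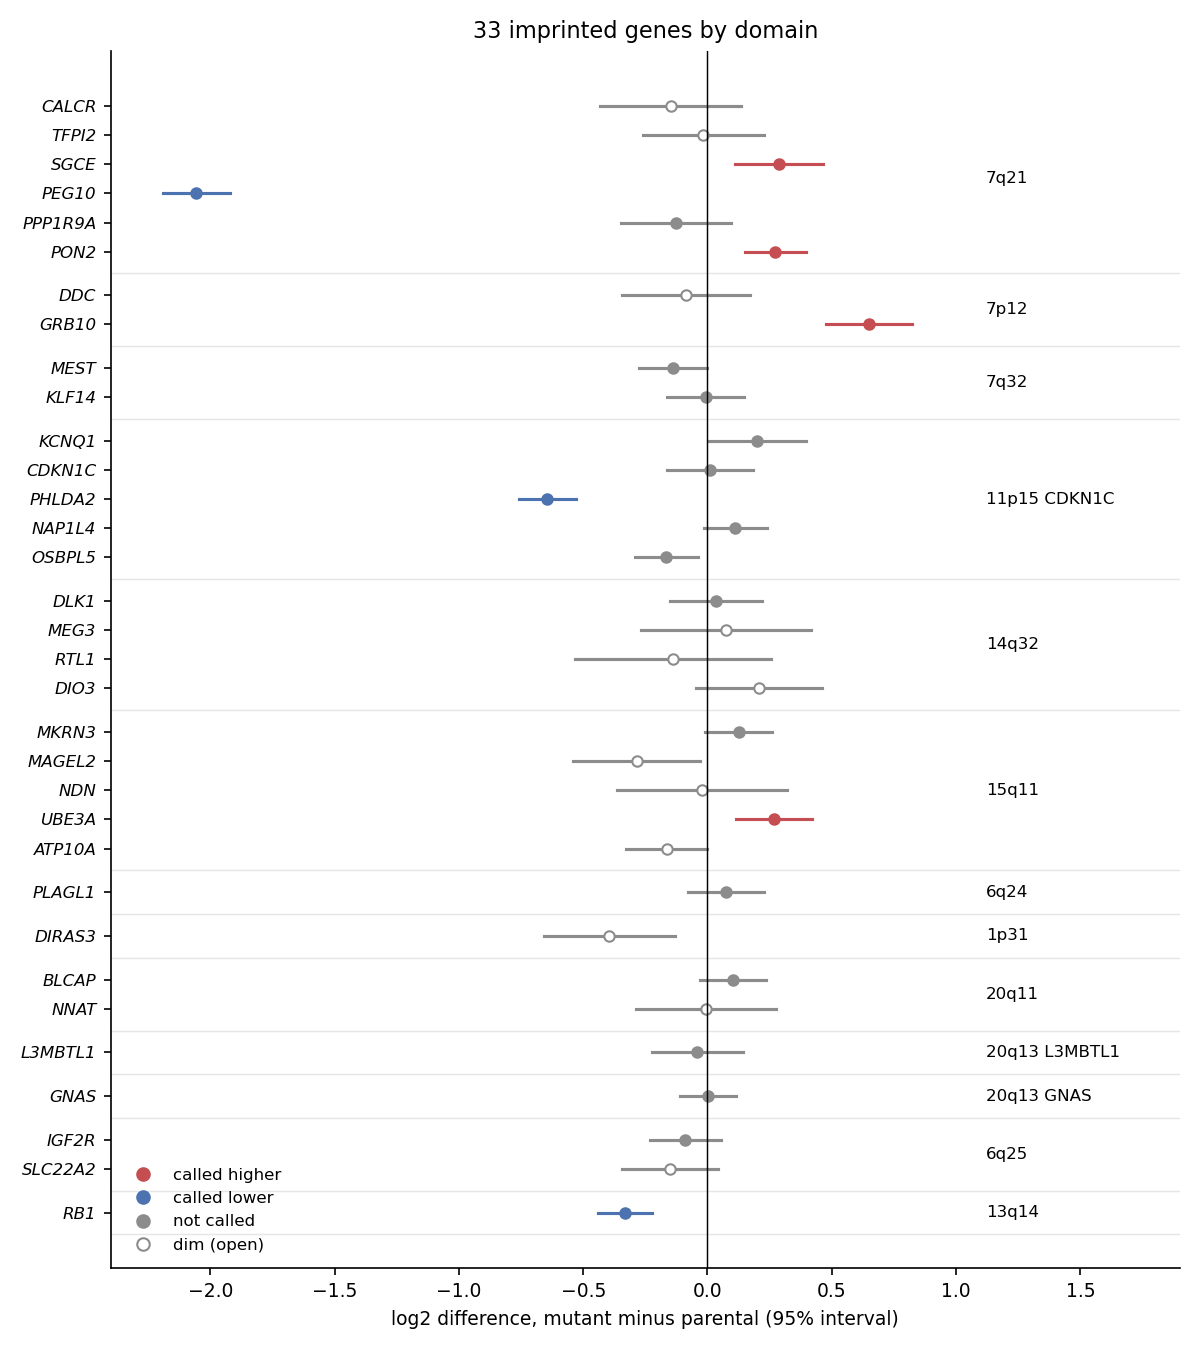
Points give the log2 difference, mutant minus parental, of the 33 measured imprinted genes with 95% intervals, ordered by domain (right); red and blue mark genes called higher and lower, open points dim genes. PEG10 (-2.06) lies outside the range of all others, which run from -0.64 (PHLDA2) to 0.65 (GRB10).

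Brightness and calls went together. Of the 33 genes 12 were dim and 0 of these were called in limma, though 3 had an unadjusted p under 0.05; among all dim genes 7.16% were called. Of the other 21 genes 7 were called (33.3%), against 36.7% of all genes that were not dim. Dim genes were thus called less often over the whole table as well.

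A list of imprint regulators, which mixes genes that set, keep or remove imprints and DNA methylation, was measured for 40 of its 43 genes. Of these, 10 were called higher and 4 lower (35%, against 25.9% of all genes), with a median of 0.06. Of the 34 that were not dim 14 were called (41.2%, against 36.7%). Among the zinc finger and heterochromatin arm, CBX5, the heterochromatin protein HP1 alpha, measured 11.55, 11.51 and 11.60 on the parental arrays and 12.48, 12.46 and 12.57 on the mutant arrays. The difference was 0.95 (SE 0.06; limma adjusted p = 0.000215). ATRX, a chromatin remodeller, rose by 0.61 (SE 0.08; adjusted p = 0.00354), and EHMT1, a histone H3 lysine methyltransferase, by 0.59 (SE 0.05; adjusted p = 0.00102). SMCHD1, a structural chromatin protein that acts at several imprinted clusters, measured 10.33, 10.32 and 10.43 on the parental arrays and 9.67, 9.65 and 9.63 on the mutant arrays. It fell by 0.71 (SE 0.05; limma adjusted p = 0.00048), and it lies on chromosome 18, where 25% of 264 genes were called lower. CBX1, another HP1 protein, fell by 0.35, and DNMT3B, a methyltransferase that adds new methylation, fell by 0.39. Of the 12 measured DNA methylation genes 2 were called, both lower (16.7%, below the 25.9% of all genes).

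IGF2, GRB10 and IGF2R act in IGF signalling. Of 23 measured genes of that pathway among 26 listed, 2 were called higher and 2 lower (17.4%, against 25.9% of all genes), with a median of -0.05. Of the 13 that were not dim 4 were called (30.8%, against 36.7%). IRS1, an insulin receptor substrate, measured 9.53, 9.54 and 9.54 on the parental arrays and 8.47, 8.54 and 8.6 on the mutant arrays, a difference of -0.998 (SE 0.05; limma adjusted p = 0.000157). Its relative IRS2 rose by 0.62 (SE 0.07; adjusted p = 0.00187), so these substrates of the same receptors went opposite ways. IGF2BP2, an RNA-binding protein named for binding IGF2 mRNA, fell by 0.85 (SE 0.06; adjusted p = 0.000299), and the binding protein gene IGFBP2 rose by 0.27. The receptors IGF1R and INSR were not called. Leaving out any of the 3 parental arrays left 1 of the 2 higher calls.

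Of 53 measured genes among 69 others reported as imprinted in some tissue, 7 were called higher and 10 lower (32.1%, against 25.9% of all genes), with a median of -0.04. Of the 32 that were not dim 15 were called (46.9%, against 36.7%). At 1.5-fold or more, 1 was higher and 8 were lower, where over all genes 616 were higher and 714 lower (7.22%). Leaving out any of the 6 arrays reduced the 7 higher calls to between 1 and 4. Besides CPA4, the largest decreases were of CRYBG1 (-1.45, SE 0.08) and the AMP deaminase gene AMPD3 (-1.16, SE 0.09), with limma adjusted p-values of 0.000195 and 0.000577. The largest increases were of the ubiquitin ligase gene HECW1 (1.26, SE 0.08; limma adjusted p = 0.000332), ZDBF2 (0.44; adjusted p = 0.0235) and ZC3H12C (0.37; adjusted p = 0.0466). Imprinting of many genes in this list is confined to certain tissues, and 17 of the 53 also count among the domain neighbours.

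Over all 15 domains, 227 measured genes lay beside or between the members, of which 22 were called higher and 19 lower (18.1%, against 25.9% of all genes). Of these, 138 were dim, and among the 89 that were not dim 36 were called (40.4%, against 36.7% of all genes that were not dim). The median difference was 0.0027. Besides CPA4, CDK6 and MED4, which fell most, the largest increases were of MIR29A (0.62, dim), RCBTB2 (0.59, dim) and SLC25A13 (0.58), a mitochondrial carrier gene. The number called higher was 13 without parental replicate 2, 11 without parental replicate 1 and 10 without mutant replicate 2. Among the 33 imprinted genes the 4 higher calls became 1 without parental replicate 2 or mutant replicate 2, the gene left being GRB10, and 2 without parental replicate 1, parental replicate 3 or mutant replicate 3.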

How the data were processed

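RNA of 6 HCT116 samples (3 parental, 3 mutant) was labelled from 100 ng with biotin, per the labels. The deposited values are log2 expression, 1 per probe set and array, made by the authors with Partek and RMA (robust multi-array average), per the submitters' processing notes. No version of either tool is stated there. RMA equalises array distributions, which removes differences in total RNA and compresses dim genes. Precision is limited by the number of arrays.

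The values of 33297 probe sets were used without further normalization. Platform annotation gave 19460 probe sets 1 symbol, 1754 several and 12083 none, and each gene was represented by the single-symbol probe set with the highest mean. Mutant minus parental was fitted with limma 3.58.1 (lmFit and eBayes, R 4.3.3, no covariates), two-sided, with Benjamini-Hochberg adjustment over all probe sets and calls at an adjusted p under 0.05. The 5 nearest measured genes on each side of a domain, in RefSeq order, and those between members were its neighbours. Other steps used Python 3.11.15 with pandas 2.3.3, scipy 1.17.1, numpy 2.4.6 and, for plots, matplotlib 3.10.9. The members and lists were chosen with earlier results of these data known. All members are described, and of each other list up to 3 called genes per direction by size; other named genes were chosen after their values were seen. On simulated data (33297 probe sets, 200 changed), 61.2% of 1.5-fold, 77.6% of 2-fold and 98.5% of 4-fold changes were recovered and 8 unchanged probe sets were called. In the measured data 6166 probe sets were called, so the adjusted threshold falls at a different p-value there. The simulated noise also held no difference between cultures or clones. These rates therefore need not hold for the measured arrays. Alternatives covered normalization, variance model, array weights, dim probe sets, minimum fold, rows tested, probe set choice, replicate block and leaving out each array.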

Additional observations from a re-analysis of the deposited data

How the results depend on the processing

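PEG10, PHLDA2 and GRB10 kept their calls under all 15 alternatives, with differences of -2.08 to -2.02, -0.66 to -0.63 and 0.61 to 0.71. RB1 lost its call under 1 of them, a minimum fold of 1.2 in the test (adjusted p = 0.753; 0.000184 to 0.753 over the 15), SGCE and UBE3A under 7 and PON2 under 4. No call of a member reversed direction under these alternatives, and 23 of the 26 uncalled members were never called. That minimum fold, stricter by construction, left 1743 of 6166 probe sets, 1 higher member, 4 higher and 1 lower imprint regulators, 1 higher IGF gene, 1 higher gene among the other imprinted genes, and 2 higher and 11 lower domain neighbours. Testing only single-symbol probe sets gave 5 lower members, adding DIRAS3 and OSBPL5.

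The replicate numbers gave no sign of pairing the arrays. Deviation correlations were -0.01 to 0.04 for same-numbered arrays and -0.06 to 0.06 for differently numbered ones. Such values cannot exclude that arrays were handled in pairs. With the replicate block, 1 member, 1 IGF gene, 3 other imprinted genes and 13 neighbours were higher. Leaving out each array gave 4037 to 4644 probe sets (4109 without parental replicate 2, 4037 without mutant replicate 2), 1 to 4 higher and 3 to 4 lower members, 7 to 9 and 3 to 4 regulators, 1 to 2 and 2 IGF genes, 1 to 4 and 9 to 10 other imprinted genes, and 10 to 16 and 14 to 17 neighbours. The cause of these lost calls was not tested. Signal near background limits what the 12 dim members can show.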
